A study of Arabidopsis thaliana with 12 samples.

Results

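WRKY proteins of groups I and II were followed as transcripts in rosette leaves of Arabidopsis thaliana that lack the importin KA120, alone or together with an immune regulator. The members are 45 WRKY genes of these groups among the 34262 genes of the deposited count table, taken by gene identifier. The list need not hold every gene of these groups, and it was chosen with earlier results of these data known. Genes without counts were to be left out. All 45 had counts in at least 1 library. They comprise 9 genes of group I and 36 of group II, with 3 in subgroup IIa, 7 in IIb, 13 in IIc, 6 in IId and 7 in IIe. KA120 (AT3G08960) is a nuclear transport receptor of the importin-beta family, and the series title calls it a brake on effector-triggered immunity, the defence that starts from intracellular receptors. 4 genotypes in the Col-0 ecotype were sequenced with 3 libraries each: untreated wild type Col-0, the ka120 mutant, the ka120 pad4 double mutant and the ka120 ndr1 double mutant. Both double mutants therefore carry ka120, and no pad4 or ndr1 single mutant was analysed here. PAD4 is a lipase-like partner of EDS1 that works with TIR-type receptors, and NDR1 is a plasma membrane protein needed by many receptors with a coiled-coil domain. Neither the alleles nor the number of plants behind a library is stated in the labels, so p-values measure the spread between libraries. Plants were 3 weeks old and grew in soil at 22 °C under a day of 16 h light and 8 h dark.

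WRKY factors are plant transcription factors named after a short peptide in their DNA-binding domain, which also holds a zinc finger. They bind the W box, a short DNA element with the core TTGAC, in the promoters of defence genes and of other WRKY genes. Group I proteins carry a pair of WRKY domains and group II proteins a single domain, and the subgroups of group II are split by sequence. Some members promote immunity and others restrain it, and several are phosphorylated by MAP kinases or calcium-dependent kinases or bound by proteins with a VQ motif.

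The 12 libraries held 68436911 to 85884840 counts over 23074 to 24423 genes. Levels below are CPM, counts relative to library size after TMM scaling. The TMM factors were 0.843 to 0.874 in Col-0, 1.07 to 1.09 in ka120, 1.01 to 1.04 in ka120 pad4 and 1.045 to 1.055 in ka120 ndr1. The size of differences from Col-0, and the direction of the smallest, therefore depends on this scaling. The KA120 transcript stood at 24.2 to 33.0 CPM in Col-0 and at 3.64 to 6.03 in the 9 mutant libraries, and NDR1 at 0 to 0.166 in ka120 ndr1 against 4.79 to 5.63 in Col-0. PAD4 had 7.73 to 19.1 CPM in ka120 pad4, below its 54.6 to 107 in the parent ka120 (-2.75 ± 0.32, adjusted p = 8.53e-04) and its 42.2 to 64.4 in ka120 ndr1, without overlap, but above its 4.602 to 5.54 in Col-0. The 6 leaf markers summed to 48408 to 51213 CPM in Col-0 and all 6 fell in ka120, to a sum of 25009 to 28724 CPM, with 30590 to 36453 in ka120 pad4 and 29574 to 31668 in ka120 ndr1. In a leaf extract, fewer cells of a type and less RNA per cell cannot be told apart. Of 5 root markers the defining gene EXPA7 was at 0 in every library, and WOX5 was the 1 that changed, from a mean of 0.0217 CPM to 0.300. Of 5 flower markers PI and AG were higher in ka120 (means of 3.74 and 1.73 CPM against 1.35 and 0.635) and SEP4 was lower. The part of these cell type markers in the results below was not tested. Summed over its 5 genes the root list held 51.7 to 59.3 CPM in Col-0 and 52.2 to 55.9 in ka120, and the flower list 22.0 to 25.9 and 13.9 to 16.3. Of 4 shoot meristem markers 3 were tested and 0 passed in edgeR (KNAT1 had an unadjusted p of 0.0392), and the list held 8.72 to 10.4 CPM in Col-0 and 10.3 to 12.3 in ka120. Of 6 senescence markers 5 were tested in ka120: SAG13 (5.06 ± 0.51), NYE1 and NYC1 rose and NAP fell, while SAG12, the defining gene, was at 0 in every library; the list summed to 147 to 167 CPM in Col-0 and 256 to 331 in ka120.

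The DNA that encodes the WRKY motif set 2 members apart, WRKY50 and WRKY51, whose levels rise from near 0 in the comparison below. It was read from the RefSeq gene models of assembly TAIR10.1, and the motif was found in all 45 members, as 2 copies in each of the 9 group I genes and as 1 copy in each of the 36 group II genes. The codon of the sixth residue of the motif, printed in capitals, encodes lysine in WRKY50 and WRKY51 and glutamine in each of the other members. The motif of WRKY50 lies in coding sequence at chr5:9147579-9147599 (minus strand), that of WRKY51 at chr5:25908864-25908884 (plus strand), that of WRKY60 at chr2:10630643-10630663 (plus) and that of WRKY57, another member of subgroup IIc, at chr1:26056595-26056615 (minus). WRKY33 has its first motif at chr2:16109358-16109378 and its second at chr2:16109982-16110002, both on the plus strand.
WRKY50: tggagaaagtatgggAAGaag
WRKY51: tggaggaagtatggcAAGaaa
WRKY57: tggcgtaaatatggaCAAaaa
WRKY60: tggaggaaatacgggCAAaag
WRKY33, first motif: tggagaaagtacggaCAAaaa
WRKY33, second motif: tggagaaaatacggcCAGaaa

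W boxes were searched as TTGACC and TTGACT on both strands in the 250 bases before each gene's annotated start, a window with no transcribed base of the gene. 16 of the 45 members (35.6%) held at least 1 box and 6 (13.3%) held 2, compared with 28.4% and 6.18% of the windows of all 27443 protein-coding genes that held at least 1 and at least 2. Of the 17 members that rose at least 2-fold in ka120 (below), 8 held a box, as did 3 of the other 9 that rose, 1 of the 4 that fell and 4 of the 15 that did not pass or were not tested. WRKY50, WRKY51, WRKY60, WRKY18, WRKY40 and WRKY47 had neither TTGACC nor TTGACT on either strand of the window. The core TTGAC followed by another base was not counted, and the windows of WRKY51 and WRKY40 hold it as TTGACA. The 3 windows with 2 boxes among the 17 are shown, read along the gene's own strand with the boxes in capitals: WRKY15 at chr2:9924636-9924885 (plus strand), WRKY33 at chr2:16107985-16108234 (plus) and WRKY45 at chr3:327413-327662 (minus). The box of WRKY33 nearer to the gene starts 32 bases before its start, and that of WRKY45 15 bases before. A match describes letters and is not evidence of binding.
WRKY15: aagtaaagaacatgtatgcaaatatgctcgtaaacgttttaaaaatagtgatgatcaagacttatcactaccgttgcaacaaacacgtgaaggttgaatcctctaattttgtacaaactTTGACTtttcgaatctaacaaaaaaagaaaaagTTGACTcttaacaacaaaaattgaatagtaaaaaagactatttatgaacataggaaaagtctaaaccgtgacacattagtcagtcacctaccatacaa
WRKY33: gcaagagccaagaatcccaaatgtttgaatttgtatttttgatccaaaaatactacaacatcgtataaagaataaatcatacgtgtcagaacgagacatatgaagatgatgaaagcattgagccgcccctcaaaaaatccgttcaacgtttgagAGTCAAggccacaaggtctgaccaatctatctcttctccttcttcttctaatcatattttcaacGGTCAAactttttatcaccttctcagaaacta
WRKY45: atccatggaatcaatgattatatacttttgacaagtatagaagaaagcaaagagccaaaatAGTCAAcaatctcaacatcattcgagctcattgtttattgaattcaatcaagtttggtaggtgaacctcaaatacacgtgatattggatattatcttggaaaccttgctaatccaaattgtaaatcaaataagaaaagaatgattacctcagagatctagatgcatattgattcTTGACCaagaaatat

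Setting ka120 beside wild type addresses what loss of KA120 does to the WRKY transcripts of unchallenged leaves. The lysine-variant genes WRKY50 and WRKY51, the subgroup IIa trio WRKY18, WRKY40 and WRKY60, and the group I genes WRKY25 and WRKY33 were among those that rose. WRKY11, WRKY23 and WRKY27 fell, and so did WRKY7 after TMM scaling. Of the 43 members that passed the filter on low counts, 26 rose and 4 fell at an adjusted p under 0.05, where 28.0% of all 22351 tested genes rose and 27.0% fell. 17 members rose at least 2-fold, compared with 10.7% of all tested genes. The median log2 fold change over the 43 members was 0.80 and over all tested genes 0.02. All 3 ka120 libraries stood above all 3 Col-0 libraries in 27 members and below them in 6, against 32.3% and 31.0% of all tested genes. By subgroup, 7 of 9 members of group I rose and the 3 of IIa rose, while 4 of 6 tested members rose in IIb, 7 of 12 in IIc, 3 of 6 in IId and 2 of 7 in IIe. The 4 that fell belong to IIc, IId and IIe. 25 of the 30 calls held in all alternative fits that were run, and the calls of WRKY1, WRKY7, WRKY15, WRKY20 and WRKY23 ended in at least 1 of them. The number that fell was 2 when Col-0 replicate 2, ka120 replicate 1 or ka120 replicate 2 was left out.

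**Figure D1:**
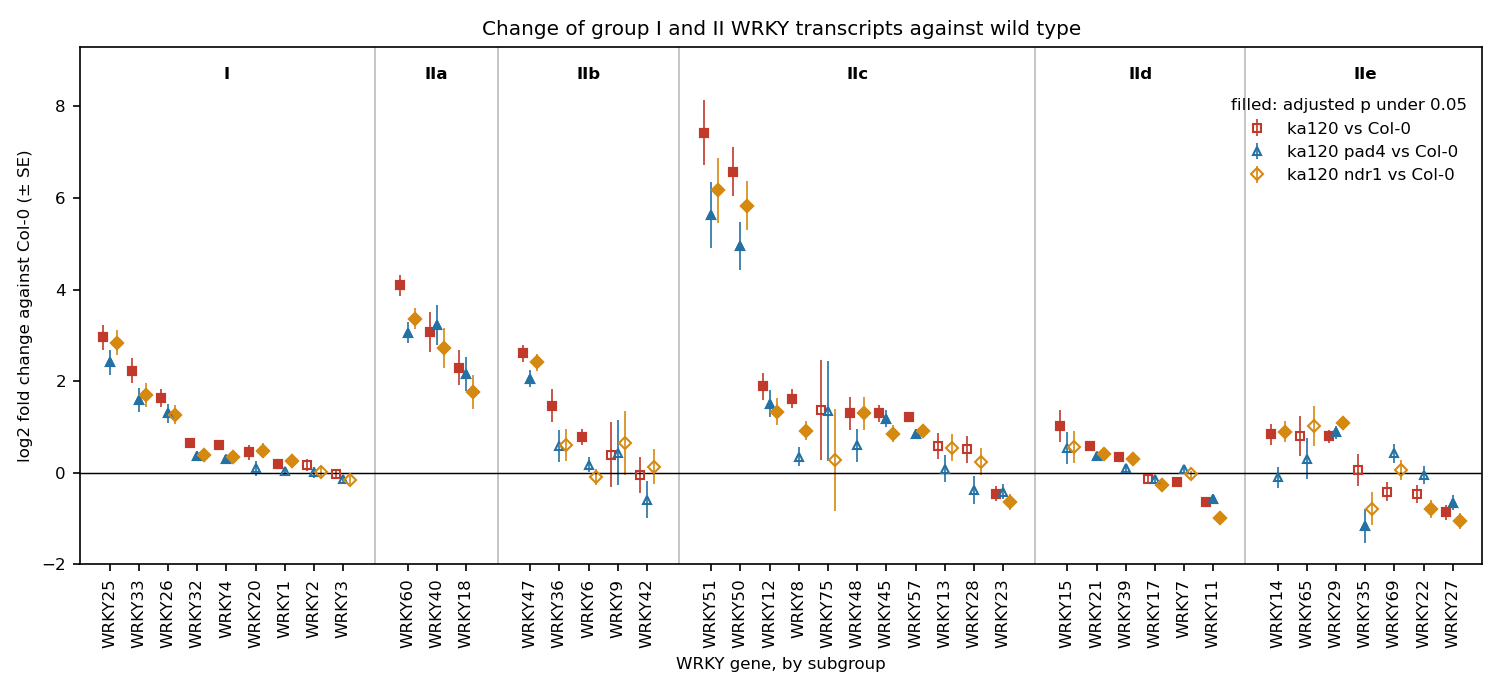
Log2 fold change (± SE, from the edgeR fit) of each tested member against Col-0 in ka120, ka120 pad4 and ka120 ndr1, by subgroup, with filled markers for an adjusted p under 0.05. WRKY51 and WRKY50 stand apart at 7.42 and 6.58 in ka120, and the 3 genes of subgroup IIa are at 1.76 or more in each mutant; WRKY71 and WRKY72, at 0 in Col-0, are not drawn.

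Group I includes the defence regulator WRKY33, which is phosphorylated by MPK3 and MPK6 and switches on camalexin genes against necrotrophic fungi. WRKY33 (AT2G38470, chromosome 2, 16108235 to 16110766, plus strand) read 9.18, 8.11 and 8.34 CPM across the Col-0 libraries and 44.2, 46.4 and 29.2 across those of ka120, and no library of 1 genotype overlapped the other. It rose by 2.23 ± 0.27 on the log2 scale (± SE; adjusted p = 2.05e-05). WRKY25, its close relative with a role in heat tolerance, read 5.92, 5.72 and 3.97 CPM across the Col-0 libraries and 41.9, 47.8 and 31.5 across those of ka120 (2.96 ± 0.27, adjusted p = 2.30e-06). Every ka120 library of WRKY25 lay above every Col-0 library, and replicate 3 was the lowest of ka120. WRKY26, which acts with WRKY25 and WRKY33 in heat tolerance, was less abundant, at 1.29, 0.944 and 1.06 CPM across the Col-0 libraries and 3.99, 2.93 and 3.28 across those of ka120 (1.63 ± 0.21). The other group I genes moved little. WRKY32 rose by 0.64, WRKY4, which with WRKY3 contributes to resistance to necrotrophs, by 0.60, WRKY20 by 0.44 and WRKY1 by 0.18. WRKY2, which acts in seed germination and zygote polarity, had a log2 difference of 0.17 (adjusted p = 0.276) and WRKY3 one of -0.02 (0.824).

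Subgroup IIa consists of WRKY18, WRKY40 and WRKY60, which bind one another and jointly restrain defence against powdery mildew. WRKY60 read 2.51, 1.85 and 2.82 CPM across the Col-0 libraries and 41.2, 45.5 and 36.5 across those of ka120, with no overlap between these genotypes. It rose by 4.10 ± 0.23 (adjusted p = 6.64e-08). WRKY40 read 1.30, 0.742 and 0.978 CPM across the Col-0 libraries and 9.38, 11.3 and 4.62 across those of ka120 (3.07 ± 0.44, adjusted p = 7.79e-05). WRKY18 read 5.79, 4.35 and 4.92 CPM across the Col-0 libraries and 25.04, 35.7 and 13.2 across those of ka120 (2.29 ± 0.38, adjusted p = 2.39e-04). For both WRKY40 and WRKY18 ka120 replicate 3 was well below the other ka120 libraries, yet above every Col-0 library.

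Subgroup IIb includes WRKY6, a senescence and phosphate regulator that represses the phosphate exporter gene PHO1 together with WRKY42. WRKY47 read 2.15, 3.71 and 3.97 CPM across the Col-0 libraries and 22.0, 19.7 and 18.5 across those of ka120, without overlap (2.61 ± 0.19, adjusted p = 3.27e-07). WRKY6 read 5.88, 6.59 and 6.49 CPM across the Col-0 libraries and 11.7, 13.1 and 7.65 across those of ka120 (0.78 ± 0.17, adjusted p = 0.00198). Its ka120 replicate 3 was close to the Col-0 range but still above it. WRKY36, at 0.407, 0.236 and 0.383 CPM across the Col-0 libraries and 1.01, 1.097 and 0.738 across those of ka120, rose by 1.46 ± 0.36. WRKY72, a gene of basal defence, had no count in Col-0 and 0.528, 0.660 and 0.204 CPM in ka120 (125 counts in all, adjusted p = 0.00847). With 3 counts over the 3 Col-0 libraries taken as the floor, it was at least 29.8-fold higher. That floor treats a count as a single read, and small counts here are less exact than that, so the bound may be too high. WRKY42 and WRKY9 did not pass, with adjusted p of 0.932 and 0.666. WRKY31 did not pass the filter: it had no count in Col-0 and 24 counts over the 3 ka120 libraries.

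Among members with counts in Col-0, the 2 largest log2 changes were those of WRKY51 and WRKY50 in subgroup IIc; the fold of WRKY72, at 0 in Col-0, has only a lower bound and was not ranked. WRKY50 and WRKY51 mediate the repression of jasmonate responses by salicylic acid, and WRKY50 also binds the promoter of the defence gene PR1. WRKY50 (AT5G26170, chromosome 5, 9146879 to 9148391, minus strand) read 0.423, 0.725 and 0.383 CPM across the Col-0 libraries and 55.5, 57.4 and 32.1 across those of ka120, and rose by 6.58 ± 0.54 (adjusted p = 9.11e-07). WRKY51 (AT5G64810, chromosome 5, 25908247 to 25909881, plus strand) read 0.195, 0.0843 and 0 CPM across the Col-0 libraries and 16.3, 21.6 and 8.96 across those of ka120, and rose by 7.42 ± 0.71 (adjusted p = 3.04e-06). Both went from near absence in Col-0 to a well-measured level in every ka120 library, with replicate 3 the lowest.

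WRKY8, WRKY28 and WRKY48 are substrates of calcium-dependent kinases in immunity, and WRKY48 represses basal defence against bacteria. WRKY8 read 4.08, 2.14 and 2.71 CPM across the Col-0 libraries and 8.93, 10.7 and 7.64 across those of ka120 (1.61 ± 0.21, adjusted p = 3.61e-05). WRKY48 read 1.63, 1.35 and 0.510 CPM across the Col-0 libraries and 2.70, 3.30 and 2.51 across those of ka120 (1.29 ± 0.36, adjusted p = 0.00848). The groups did not overlap in either gene. WRKY28, an activator of the salicylic acid synthesis gene ICS1, had means of 0.895 CPM in Col-0 and 1.28 in ka120 (adjusted p = 0.162).

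WRKY45, which activates the phosphate transporter gene PHT1;1, read 2.59, 1.65 and 2.31 CPM across the Col-0 libraries and 5.94, 4.48 and 5.66 across those of ka120 (1.29 ± 0.18). WRKY57, linked to drought tolerance and jasmonate-induced senescence, read 6.51, 6.86 and 6.92 CPM across the Col-0 libraries and 16.7, 13.0 and 17.4 across those of ka120 (1.21 ± 0.11, adjusted p = 2.69e-06). WRKY12, a repressor of secondary wall formation in pith, read 0.342, 0.540 and 0.624 CPM across the Col-0 libraries and 2.33, 1.77 and 1.51 across those of ka120 (1.89 ± 0.30). The groups did not overlap in these 3 genes. WRKY23, which acts downstream of auxin, fell by 0.47 (adjusted p = 0.0300), and this call ended without Col-0 replicate 2 or any 1 of the ka120 libraries. WRKY13 (adjusted p = 0.106) and the phosphate and senescence regulator WRKY75 (0.309) did not pass. WRKY71, linked to shoot branching, had no count in Col-0 and 24 over the ka120 libraries (adjusted p = 0.0533), and WRKY56, with 0 to 0.141 CPM in the 12 libraries, did not pass the filter.

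The decreases lay in IIc, IId and IIe. Members of IId bind calmodulin, and WRKY11 with its relative WRKY17 restrains basal resistance to bacteria. WRKY11 had means of 21.004 CPM in Col-0 and 13.5 in ka120 and fell by 0.63 (adjusted p = 3.01e-04). WRKY17 had a log2 difference of -0.14 (adjusted p = 0.224). WRKY15, which acts in leaf growth and osmotic stress, rose by 1.02 ± 0.35 (adjusted p = 0.0271), but its libraries overlapped: it read 11.9, 12.5 and 12.5 CPM across the Col-0 libraries and 30.9, 31.7 and 12.2 across those of ka120. Replicate 3 of ka120 lay inside the Col-0 range, and the log2 fold change was 0.82 to 1.36 over the alternatives; the call ended with limma and without any 1 of the Col-0 libraries or ka120 replicate 1 or 2. WRKY21 rose by 0.58, WRKY39 by 0.34, and WRKY7 read 14.7, 15.02 and 15.2 CPM across the Col-0 libraries and 13.0, 12.2 and 13.8 across those of ka120, a decrease of 0.21 ± 0.07. Relative to library totals without the TMM factors, WRKY7 was instead higher in every ka120 library than in every Col-0 library, so its direction depends on the scaling. In IIe, WRKY29, which with WRKY22 acts downstream of flagellin perception, rose by 0.80 and WRKY14 by 0.84, whereas WRKY27, which affects symptoms of bacterial wilt, fell by 0.87 (adjusted p = 7.47e-04). WRKY22 (adjusted p = 0.0559), WRKY65, WRKY69 and WRKY35 did not pass in this comparison.

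**Figure D2:**
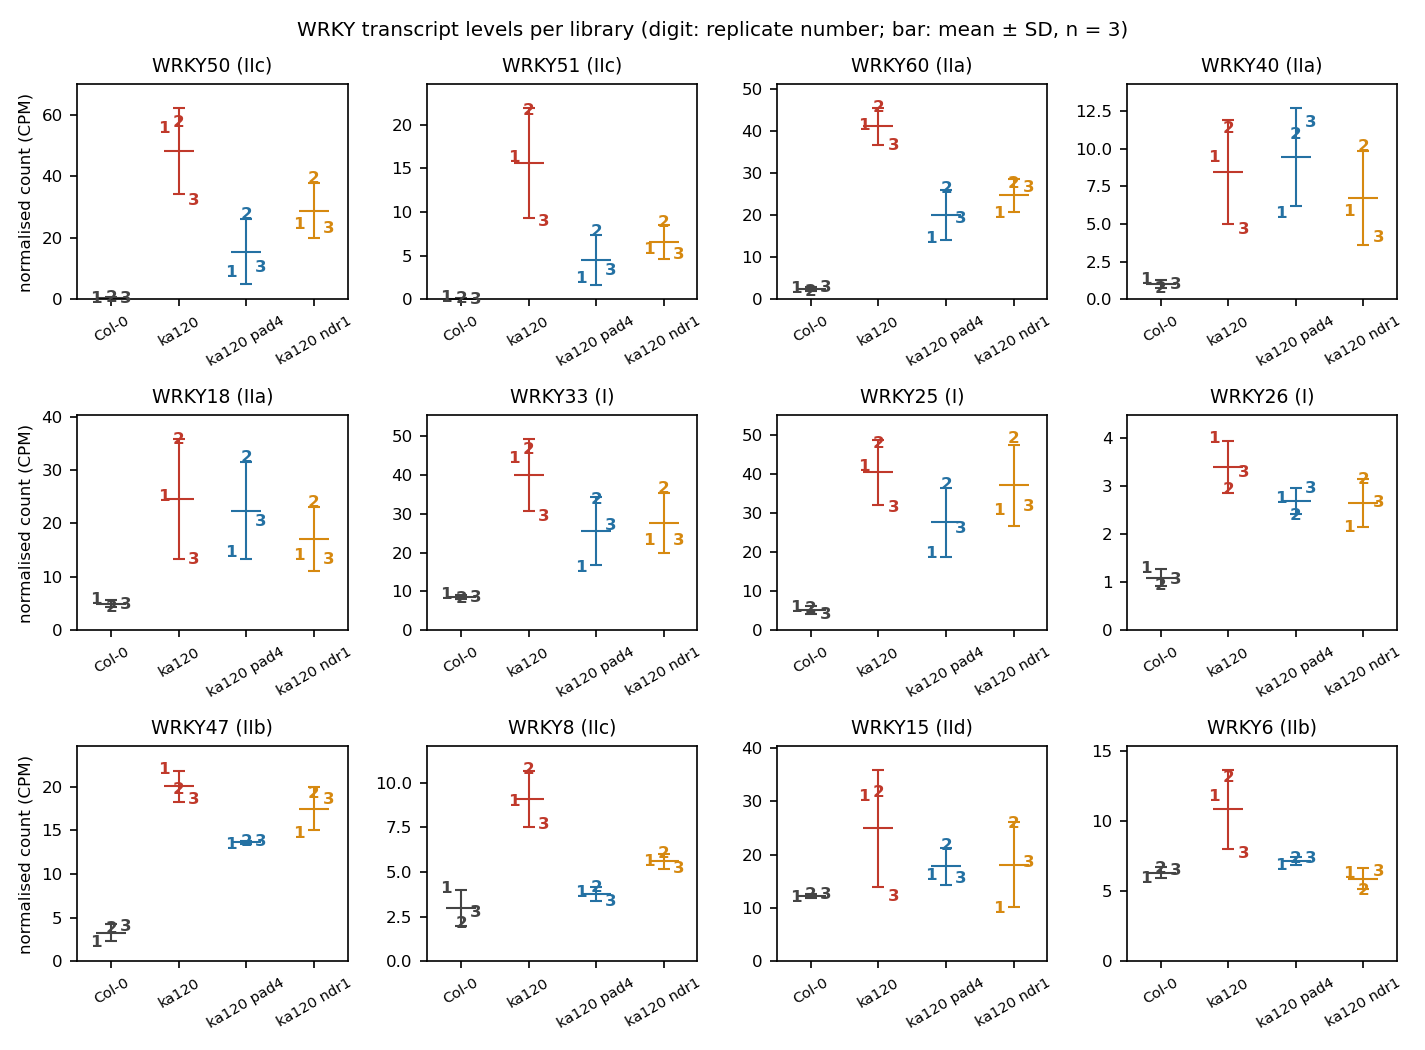
Level in CPM of 12 members in each library, with the digit giving the replicate number and the bar the mean ± SD of 3 libraries per genotype. WRKY50 has 0.383 to 0.725 CPM in Col-0 and 32.1 to 57.4 in ka120; in WRKY18, WRKY40 and WRKY15 ka120 replicate 3 is far below the other ka120 libraries.

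Levels can be compared between genes when they are also scaled by length, here as CPM per kilobase of annotated exon. On that scale WRKY1 was the most abundant member in Col-0 (17.2 ± 1.23, SD, n = 3), followed by WRKY17 (13.95 ± 1.03) and then WRKY3 (11.9 ± 0.738) and WRKY11 (11.6 ± 0.370), which do not differ beyond their spread. In ka120 WRKY50 was at 44.7 ± 13.0, first among the 45, having been 34th in Col-0 at 0.472. WRKY60 moved from 26th (1.51) to 2nd (26.0 ± 2.83), WRKY51 from 41st to 7th and WRKY25 from 16th to 3rd. Behind WRKY50, the levels of WRKY60, WRKY25, WRKY33, WRKY1 and WRKY15 lay within their spread of the next in order. In ka120 pad4 the order was led by WRKY1 (17.7 ± 0.513), WRKY25 (15.6 ± 5.02) and WRKY50 (14.4 ± 9.66), whose ranges overlapped. In ka120 ndr1 WRKY50 (26.7 ± 8.40), WRKY25 (20.9 ± 5.83) and WRKY1 (20.5 ± 0.465) led, also with overlapping spread. Summed over the 45 members, the level was 308 to 322 CPM in Col-0, 516 to 658 in ka120, 396 to 508 in ka120 pad4 and 453 to 549 in ka120 ndr1.

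**Figure D3:**
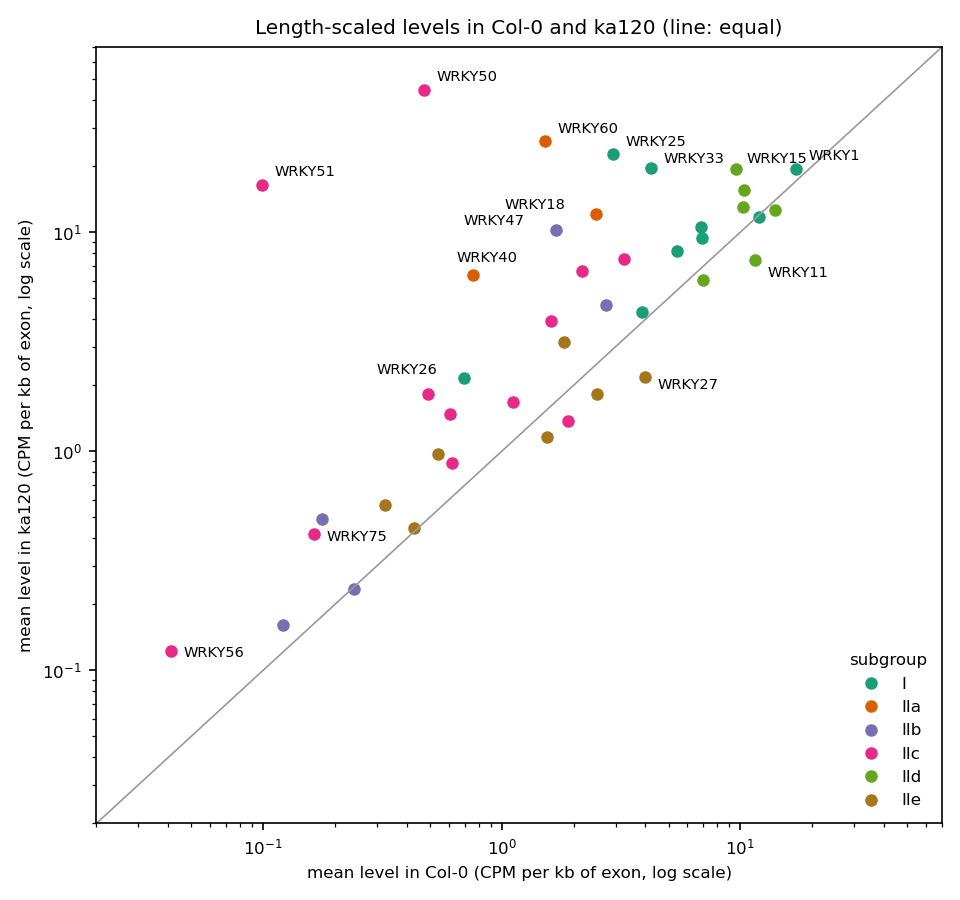
Mean level per kilobase of exon in ka120 against Col-0 on log axes, 1 point per member with counts in Col-0, coloured by subgroup, with the line of equal levels. WRKY50, WRKY51 and WRKY60 lie far above the line and end among the 7 highest in ka120, while WRKY11 and WRKY27 lie below it.

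Libraries of 1 genotype differed in a way that many of these genes shared. Over the 17 members that rose at least 2-fold, ka120 replicate 3 was below both other ka120 libraries in 14, and ka120 replicate 2 above both in 12. In ka120 pad4 replicate 1 was the lowest of its genotype in 11 and replicate 2 the highest in 10. Replicate 2 of ka120 ndr1 was the highest of its genotype in 13. Wild type differed too, with Col-0 replicate 1 the highest in 10 and Col-0 replicate 2 the lowest in 8. PR1, a pathogenesis-related gene induced by salicylic acid, moved alongside, with 1666, 2005 and 1397 CPM in the ka120 libraries, 160, 634 and 320.0 in ka120 pad4 and 521, 685 and 473 in ka120 ndr1. Its counts in Col-0 were 0 in 2 libraries and came to 0.0674 CPM in the other. These counts were not made over all tested genes, so a shift common to all genes was not separated from one of these members. The labels name no batch for these libraries, and what sets them apart was not tested.

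**Figure D4:**
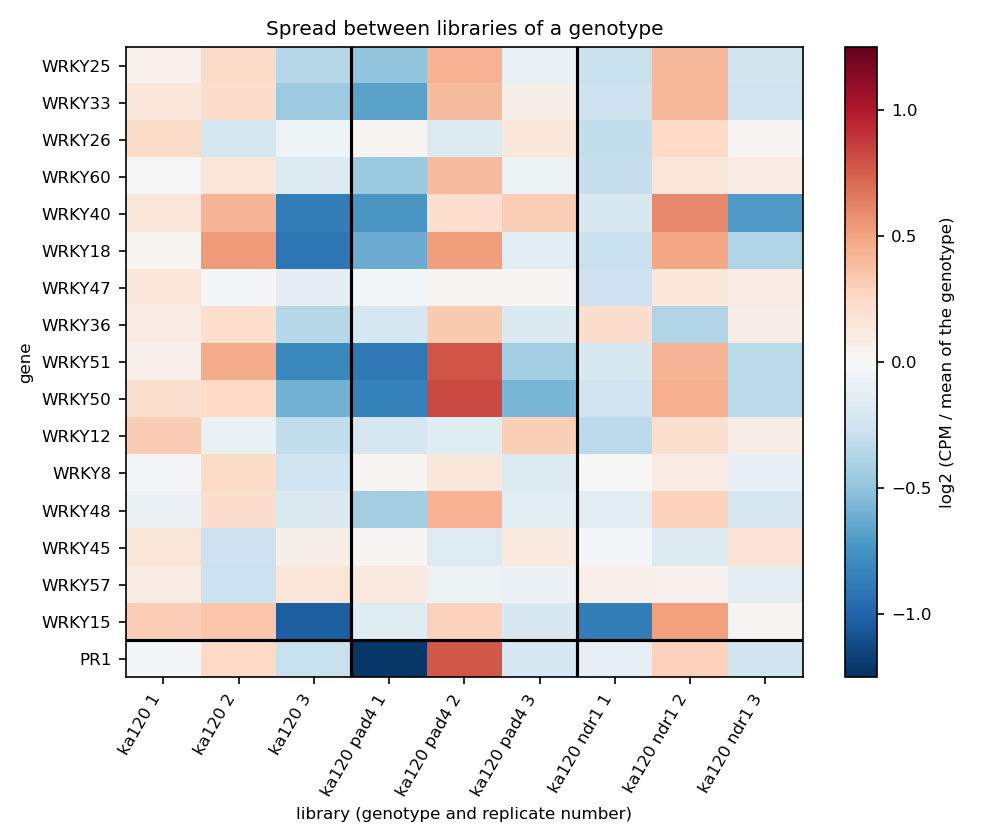
Log2 of each library's CPM over the mean of its genotype for 16 of the members that rose at least 2-fold (WRKY72, with libraries at 0, is left out) and for PR1. Columns for ka120 replicate 3 and ka120 pad4 replicate 1 are mostly blue (lower). Those for replicate 2 of ka120, ka120 pad4 and ka120 ndr1 are mostly red (higher), and values run from -1.21 to 0.83.

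Adding pad4 to ka120 asked which increases depend on PAD4. WRKY50, WRKY51, WRKY8, WRKY60, WRKY14, WRKY6, WRKY47 and WRKY57, all raised in ka120, were lower in ka120 pad4. WRKY35, which did not pass in ka120 against Col-0, was also lower, while WRKY7 and WRKY69 were higher. That makes 9 of 43 tested members lower and 2 higher, where 8.39% of all tested genes were lower and 9.83% higher. The median change of the members was -0.35, and that of all tested genes 0.00 on the log2 scale.

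WRKY50 had 8.64, 27.6 and 10.5 CPM in ka120 pad4, each under all ka120 libraries (-1.63 ± 0.39, adjusted p = 0.0138). WRKY51 had 2.42, 7.76 and 3.33 CPM (-1.79 ± 0.46, adjusted p = 0.0190), again without overlap. In both genes replicate 2 was the highest of the double mutant, and both stayed far above Col-0. WRKY8 had 3.84, 4.15 and 3.37 CPM in ka120 pad4 (-1.26 ± 0.21, adjusted p = 0.00240), which overlaps its Col-0 range. WRKY60 had 14.5, 26.3 and 19.1 CPM (-1.04 ± 0.20, adjusted p = 0.00489), between Col-0 and ka120 in all 3 libraries. Of the 11 calls, those of WRKY8 and WRKY60 held in all alternative fits.

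WRKY47 had a narrow 13.4, 13.7 and 13.8 CPM in ka120 pad4 (-0.56 ± 0.17, adjusted p = 0.0416). WRKY6 had 6.79, 7.34 and 7.30 CPM, next to ka120 replicate 3 at 7.65 (-0.60 ± 0.17, adjusted p = 0.0283). WRKY57 had 13.2, 11.6 and 11.6 CPM and overlapped ka120 at its replicate 2 (-0.37 ± 0.11, adjusted p = 0.0386). These 3 genes stayed closer to ka120 than WRKY50 and WRKY51 on the log2 scale, though the difference between genes was not tested.

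Some changes involved genes that ka120 alone had raised by less than 2-fold, as WRKY14 (0.84, adjusted p = 0.00814), or had not raised. WRKY14 read 1.11, 0.978 and 1.19 CPM across the Col-0 libraries, 1.64, 1.75 and 2.48 in ka120 and 0.871, 0.916 and 1.26 in ka120 pad4 (-0.94 ± 0.23, adjusted p = 0.0146). WRKY35 read 0.781, 0.826 and 0.780 CPM across the Col-0 libraries, 0.998, 0.756 and 0.727 in ka120 and 0.332, 0.512 and 0.219 in ka120 pad4, the lowest of the 3 genotypes (-1.22 ± 0.36, adjusted p = 0.0369). WRKY69 went the other way, with 2.08, 2.06 and 1.66 CPM in Col-0, 1.23, 1.49 and 1.62 in ka120 and 2.03, 2.72 and 3.00 in ka120 pad4 (0.83 ± 0.21, adjusted p = 0.0180). Its exons overlap 255 bases of AT3G58720 on the other strand, which had a mean of 2.05 CPM in ka120 and of 2.4995 in ka120 pad4 and did not pass (adjusted p = 0.443). WRKY7 had 16.2, 15.1 and 16.1 CPM in ka120 pad4, above its ka120 libraries and near Col-0 (0.28 ± 0.07, adjusted p = 0.0218).

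Several of the most raised genes did not pass here. WRKY40 had 5.71, 10.9 and 11.7 CPM in ka120 pad4 (a log2 difference of 0.16, adjusted p = 0.825) and WRKY18 14.6, 32.3 and 20.3 (-0.14, adjusted p = 0.843). Both overlapped ka120 widely. WRKY25 had 19.6, 37.2 and 26.0 CPM (-0.55, adjusted p = 0.155), and WRKY33 16.1, 33.6 and 26.9 (-0.65, adjusted p = 0.102). Of the 9 group I genes 0 passed in edgeR, 5 had a lower level at an unadjusted p under 0.05, 3 passed as lower in DESeq2 and 0 in limma. The number of members that were lower was 3 without ka120 replicate 1, 4 without ka120 replicate 2, 3 without ka120 pad4 replicate 1, 3 without its replicate 3 and 4 in a fit to only the 2 genotypes; the number that were higher was 0, 0, 1, 0 and 1 in these fits.

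**Figure D5:**
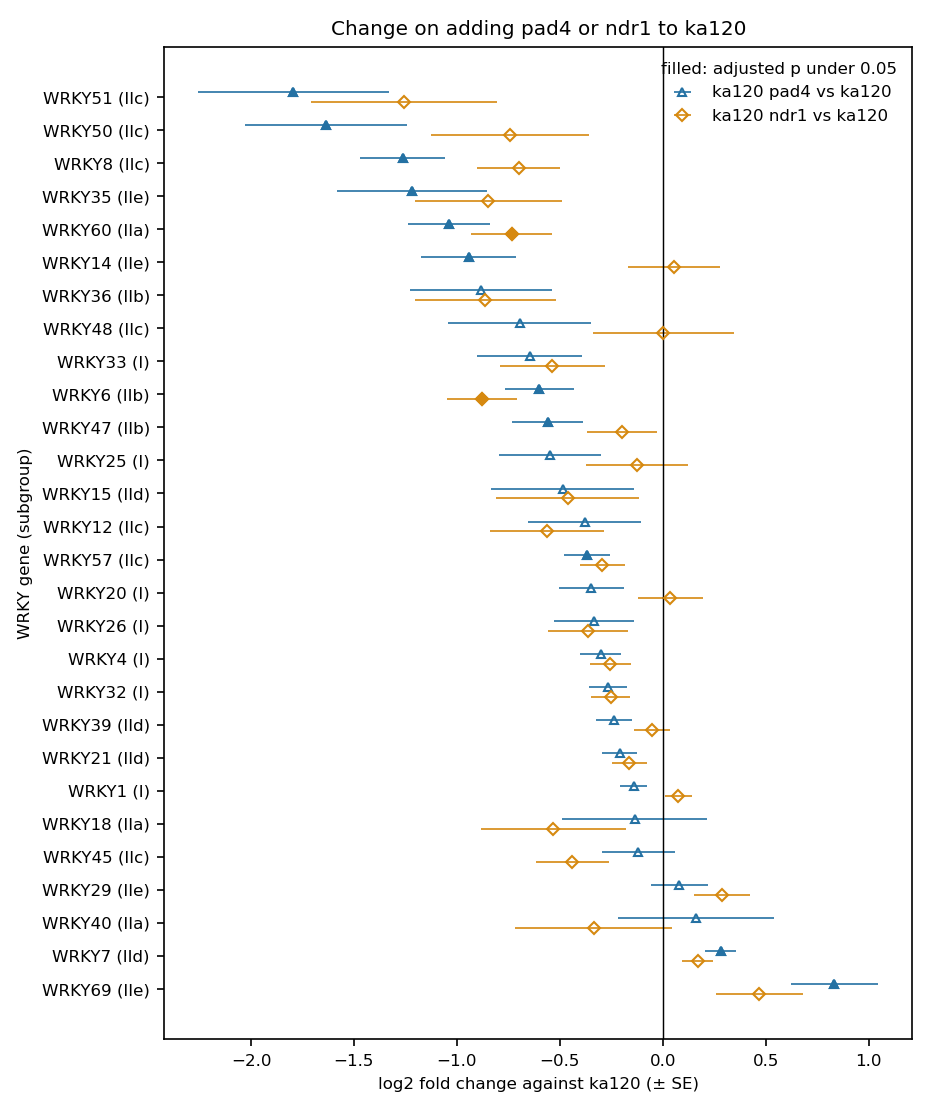
Log2 fold change (± SE) against ka120 in ka120 pad4 and ka120 ndr1 for the members that rose in ka120 or passed in either comparison, except WRKY72, ordered by the ka120 pad4 value, with filled markers for an adjusted p under 0.05. WRKY51 and WRKY50 are at -1.79 and -1.63 in ka120 pad4, and in ka120 ndr1 the filled markers are those of WRKY6 and WRKY60; both comparisons share the ka120 libraries.

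Adding ndr1 to ka120 asked the same for NDR1, and fewer members passed. WRKY6 and WRKY60 were lower in ka120 ndr1 than in ka120, and no member was higher. That is 2 of 43 tested members lower, where 2.74% of all tested genes were lower, and 0 higher, where 3.20% were; the 0 was also found with DESeq2 and limma, and 2 members were higher at an unadjusted p under 0.05. WRKY6 had 6.26, 5.04 and 6.36 CPM in ka120 ndr1, all within or below its Col-0 range (-0.88 ± 0.17, adjusted p = 0.0160). WRKY60 had 20.3, 27.4 and 26.5 CPM, between Col-0 and ka120 without overlapping either (-0.73 ± 0.20, adjusted p = 0.0488). Neither call held in all alternatives. The number of members that were lower was 0 without ka120 replicate 1 or 2 or ka120 ndr1 replicate 1 or 2, 1 without Col-0 replicate 3, ka120 pad4 replicate 3 or ka120 ndr1 replicate 3, and 4 without ka120 replicate 3.

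Other members had lower means in ka120 ndr1 that did not pass. WRKY51 had 5.68, 8.77 and 5.18 CPM, all below the ka120 libraries (-1.26 ± 0.45, adjusted p = 0.118). WRKY50 had 24.4, 39.4 and 22.9 CPM, overlapping ka120 (-0.74 ± 0.38, adjusted p = 0.272). WRKY8 had 5.59, 6.01 and 5.20 CPM, with no overlap (-0.70 ± 0.20, adjusted p = 0.0616). WRKY25, at 30.7, 49.1 and 31.6 CPM, overlapped ka120 (adjusted p = 0.811). For WRKY40 the libraries had 5.85, 10.2 and 4.11 CPM and for WRKY18 14.1, 23.9 and 13.2. WRKY33 had 23.04, 36.5 and 23.2 CPM and WRKY47 14.6, 19.2 and 18.6. All 4 overlapped ka120. The levels of WRKY15 were 9.95, 25.9 and 18.6 CPM, from below the Col-0 range to inside that of ka120.

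The direct comparison of the double mutants asked whether pad4 and ndr1 left different levels. WRKY14 was lower in ka120 pad4 than in ka120 ndr1, where it had 1.94, 2.24 and 1.92 CPM against 0.871, 0.916 and 1.26, with no overlap (-0.998 ± 0.230, adjusted p = 0.0452). It was the 1 member of 43 that passed as lower, where 0.886% of all tested genes did; 0 passed as higher in edgeR and limma, against 1.51% of all tested genes, with 3 members at an unadjusted p under 0.05 and 2 in DESeq2. Over the alternatives the adjusted p of WRKY14 ran from 0.00460 to 0.152, and it missed the threshold without any 1 of the Col-0 libraries, the ka120 ndr1 libraries, ka120 replicates 1 and 2 or the ka120 pad4 libraries. For the genes lowered by pad4, the difference between the double mutants was -0.89 ± 0.39 for WRKY50 (adjusted p = 0.253), -0.54 ± 0.46 for WRKY51 (0.592) and -0.56 ± 0.20 for WRKY8 (0.170). WRKY50 passed as lower in the fit with a replicate block. It also passed without ka120 pad4 replicate 2 (-1.60, adjusted p = 0.0189), the library in which it was highest in that genotype. The other leave-one-out fits for WRKY50 gave adjusted p of 0.229 to 0.577, and WRKY51 and WRKY8 passed in none of the alternatives run.

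Set against Col-0 rather than ka120, each double mutant had members well above wild type. In ka120 pad4 16 members were higher and 3 lower than Col-0, against 21.6% and 20.3% of all tested genes, and in ka120 ndr1 23 were higher and 5 lower, against 24.9% and 23.5%. The medians over the 43 members were 0.37 and 0.56 on the log2 scale, and 0.03 and 0.02 over all tested genes. WRKY50 stood 4.94 ± 0.52 above Col-0 in ka120 pad4 and 5.84 ± 0.53 in ka120 ndr1. WRKY60 stood 3.06 ± 0.22 and 3.36 ± 0.23 above Col-0, and WRKY40 3.23 ± 0.44 and 2.73 ± 0.44. The trio of subgroup IIa was called higher in both. WRKY8 was not called higher in ka120 pad4 (adjusted p = 0.206) and was in ka120 ndr1 (0.91 ± 0.21, adjusted p = 0.00312).

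The members lower than Col-0 in ka120 pad4 were WRKY11 (-0.58 ± 0.11), WRKY27 (-0.66 ± 0.16) and WRKY35 (-1.16 ± 0.37). In ka120 ndr1 they were WRKY27 (-1.06 ± 0.17), WRKY11 (-0.99 ± 0.11), WRKY22 (-0.79 ± 0.19), WRKY23 (-0.64 ± 0.17) and WRKY17 (-0.27 ± 0.09). WRKY71, at 0 in Col-0, had 0.175, 0.222 and 0 CPM in ka120 ndr1 (31 counts, adjusted p = 0.0391) and 0 in ka120 pad4. Against a floor of 3 counts over the Col-0 libraries it was at least 8.19-fold higher in ka120 ndr1, a bound that may be too high as for WRKY72. The call of WRKY71 ended in 10 of the 17 alternatives that tested it. WRKY72 had 27 counts in ka120 ndr1 and 8 in ka120 pad4. All 3 comparisons with Col-0 share the same 3 wild-type libraries.

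Partners of these factors were listed with earlier results of these data known, and each list is given by its counts. Of 34 genes for VQ proteins, which bind the WRKY domain, 26 were tested in ka120 against Col-0, and 9 rose and 2 fell, with a median of 0.27, where 28.0% of all tested genes rose and 27.0% fell; the same shares apply to the lists that follow. SIB1, which binds WRKY33 and promotes its activity, went from a mean of 2.00 CPM to 38.1 (4.25 ± 0.91, adjusted p = 0.00176), and its ka120 pad4 libraries spread from 0.686 to 31.5. AT4G20000 (3.21 ± 1.01), AT1G78410 (2.86 ± 0.64) and AT1G21320 (2.54 ± 0.89) followed in size. The 2 that fell, named after their values were seen, were AT1G35830 and AT5G08480. Of 7 kinases that act on WRKY proteins, 5 rose and 1, CDPK2, fell by 0.18 (median 0.61). CPK6 rose by 1.76 ± 0.15, MPK3 by 1.28 ± 0.20, from 42.4 to 103 CPM, CPK4 by 1.195 ± 0.164 and CPK5 by 0.61 ± 0.11. Adding pad4 lowered 3 of the kinases, CPK4, CPK5 and CPK6, and 3 VQ genes, AT1G28280, AT3G22160 and AT3G56880, where 8.39% of all tested genes were lower. The VQ gene AT5G53830 was lower on adding ndr1, where 2.74% of all tested genes were.

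Genes reported as targets of these factors, picked from earlier studies of single members, gave 6 higher, 1 lower and 4 that did not pass of 11 in ka120 (median 3.08). The receptor kinase gene FRK1, reported downstream of WRKY29, rose from 0.101 to 3.87 CPM (5.25 ± 0.70). The camalexin genes CYP71A13 (4.64 ± 0.72) and PAD3 (4.06 ± 0.99), which WRKY33 activates, rose from 0.112 and 0.195 CPM to 2.79 and 3.30. PR1 rose as given above. PHO1, repressed by WRKY6 and WRKY42, was the 1 that fell (from 29.9 to 18.5 CPM, -0.69 ± 0.09) and rose again by 0.39 ± 0.09 on adding pad4, where PR1 and EDS16 (ICS1) fell. In ka120 ndr1 the mean of PHO1 was 21.1 CPM, although WRKY6 had a mean of 5.89 CPM there and of 6.32 in Col-0. A link between the levels of WRKY6 and PHO1 was not tested. PAD3 had 0.747, 1.71 and 8.52 CPM in the ka120 pad4 libraries, replicate 3 above every ka120 library. In ka120 ndr1 against ka120, PR1 fell (-1.59 ± 0.38, adjusted p = 0.0329).

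The other WRKY group, III, with 10 tested of 13 genes, had 8 that rose in ka120 and 2 that did not pass (median 4.24). WRKY46 rose from 2.74 to 68.3 CPM (4.64 ± 0.42) and ABO3 (WRKY63) by 5.33 ± 0.64, and WRKY38 and WRKY62 had no count in Col-0 and means of 5.40 and 0.375 CPM in ka120. On adding pad4, WRKY38, WRKY54 and WRKY62 fell, 3 of the 10 tested, where 8.39% of all tested genes were lower. With ndr1 added instead, 0 of the 10 passed in edgeR in either direction, where 2.74% of all tested genes were lower and 3.20% higher.

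The gene models of 8 members overlap a gene on the other strand (WRKY1, WRKY2, WRKY4, WRKY9, WRKY29, WRKY33, WRKY40 and WRKY69). The libraries were strand-specific, but the labels do not state whether counting used strand. The exons of WRKY33 share 26 bases with AT2G38480, which went the other way in ka120 (11.7 to 4.28 CPM), and those of WRKY40 share 51 bases with AT1G80850, at 17.7 and 17.98 CPM. WRKY4 shares 70 bases with AT1G13970, which rose from 1.48 to 3.30 CPM, and WRKY29 shares 251 bases with AT4G23560, at 0.0494 and 0.0757 CPM. No 2 members share a 50-base stretch of exon sequence.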

How the data were processed

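RNA was taken from about 50 mg of rosette leaf tissue and sequenced as strand-specific mRNA libraries, per the labels' protocols. The submitters' processing notes name HISAT2 (version 2.0.4), HTSeq (version 0.6.1p1) and TAIR10, with no role. The authors' deposited gene table holds estimated counts per gene and library, already whole numbers and not normalized; how they were estimated is not stated. Among values of 4 to 40 in a library, 45.7% to 48.1% are multiples of 4, where chance gives 25%, so small counts are less exact than single reads. The authors' deposited log2 values equal log2 of the count plus 0.5 over a constant per library, as tested on the files.

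Counts were tested with edgeR (version 4.0.16, R version 4.3.3): TMM factors, filterByExpr, 1 coefficient per genotype over all 12 libraries and the quasi-likelihood F test, with Benjamini-Hochberg adjustment over 22351 tested genes and a threshold of 0.05. Each SE was obtained by dividing the size of the log2 change by root F. Of the 45 members 43 passed the filter. The fitting script was tested on simulated data. Alternatives were DESeq2 size factors in edgeR, DESeq2 (version 1.42.0), no filter, a replicate block, only the 2 genotypes compared, limma (version 3.58.1) on the log2 values, and leaving out each library.

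The members and gene lists were chosen with earlier results of these data known. Values per library are given for members called in ka120 against Col-0 with a log2 change of at least 1 and for members called in any comparison among the mutants; from each gene list, the 4 called genes with the largest change are given. Other genes were named after their values were seen.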

Additional observations from a re-analysis of the deposited data

How the results depend on the processing

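No result reversed. The calls that held in all alternatives were 25 of 30 in ka120 against Col-0, 2 of 11 in ka120 pad4 against ka120, 0 of 2 in ka120 ndr1 against ka120, 17 of 19 in ka120 pad4 against Col-0, 23 of 28 in ka120 ndr1 against Col-0 and 0 of 1 between the double mutants. Leaving out 1 library at a time gave 23 to 27 higher and 2 to 4 lower members in ka120, 0 to 2 and 3 to 11 in ka120 pad4 against ka120, 0 and 0 to 4 in ka120 ndr1 against ka120, 15 to 16 and 2 to 3 in ka120 pad4 against Col-0, 20 to 24 and 4 to 5 in ka120 ndr1 against Col-0, and 0 to 1 and 0 to 1 between the double mutants. A fit to only the 2 genotypes gave 1 higher and 4 lower in ka120 pad4 against ka120 and 0 lower between the double mutants. Without a filter, 1 member was lower in ka120 ndr1 against ka120 and 0 between the double mutants. DESeq2 gave 4 lower in ka120 ndr1 against ka120, and 2 higher and 2 lower between the double mutants. Limma on the log2 values gave 1 lower in ka120 ndr1 against ka120. The cause of these differences was not tested. Over all tested genes, the 18 pairs of libraries with the same replicate number had correlations of -0.05 to 0.11, and 1 was over 0.1. The 36 other pairs between genotypes had -0.13 to 0.16. Whether the replicate numbers pair the libraries for the members alone was not tested. With a replicate block 2 members, WRKY14 and WRKY50, were lower between the double mutants, and 26 were higher and 4 lower in ka120 against Col-0. Members with a few counts per library, such as WRKY31, WRKY56, WRKY71 and WRKY72, are limited by depth.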
